A study of Caenorhabditis elegans with 12 samples.

Results

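Glutathione S-transferase and redox genes were followed in whole Caenorhabditis elegans larvae carrying 1 of 2 substitutions in let-7, a microRNA that times larval development. The members were all genes named gst, gsto, gstk, gcs, gsr, gpx, trx, trxr, prdx, sod or ctl with a number, 77 of the 46711 entries that both count tables list. They comprise 44 gst genes and 33 others, namely 8 gpx, 5 trx, 5 sod, 3 gsto, 3 prdx, 3 ctl, 2 gstk and 2 trxr genes, gcs-1 and gsr-1. All 12 libraries held total RNA, depleted of ribosomal RNA, from mid L4 animals fed HB101 bacteria and collected after 45 h at 20 °C. Each of 4 strains gave 3 libraries, lettered A to C.

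The substitutions are called U13A and U18A after the position they change in mature let-7. The U13A controls were strain DG3913 with lin-41(tn1541), and the U13A mutants were strain VT3878, whose genotype is lin-41(tn1541ma480);let-7(ma432). Those mutants therefore differ from their controls in lin-41, a main target of let-7, as well as in let-7, and the effects of the alleles cannot be told apart. The U18A controls were strain VT1367 with the transgene maIs105, and the U18A mutants were strain VT3797 with maIs105 and let-7(ma435). Thus both U13A groups carry tn1541 and both U18A groups carry maIs105. Each mutant is represented by 1 strain. The labels do not say that the libraries of a strain came from separate cultures, so p-values measure only the spread between these samples. Counts on the let-7 gene were 25, 13 and 85 for the U13A control libraries against 8, 42 and 49 for the mutant libraries, and 70, 2494 and 48 against 44, 19 and 73 for U18A. These libraries were not made for small RNA, and the counts tell nothing of which allele was present.

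Glutathione S-transferases join the tripeptide glutathione to reactive compounds and so make them easier to remove. In C. elegans many gst genes are active in the intestine and epidermis, and several, gst-4 above all, are induced by the transcription factor SKN-1 under oxidative or electrophilic stress. gcs-1 makes glutathione and gsr-1 regenerates it, while glutathione peroxidases, peroxiredoxins, thioredoxins, superoxide dismutases and catalases remove peroxides and superoxide or pass on reducing power.

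Total counts per library were 16659340 to 21414080 in the U13A table, but only 4260691 to 7266422 of these lay outside its 3 most abundant entries. In the U18A table the totals were 6107652 to 9607239. The gst genes together received 840 to 3053 counts per U13A library and 2900 to 5007 per U18A library, so the U13A values rest on fewer reads. U13A control C stood apart from its group, with 8.85% of its counts in protein-coding genes against 16.6% to 18.8% in the other U13A libraries. U18A mutant C also stood apart, differing from the other U18A mutants by a chi-square per degree of freedom of 17.16 and 23.55, against 6.558 between those. Levels are given as CPM, counts scaled to 1e+06 per library after TMM, and were compared within a table only. Markers of intestine, epidermis, germline, sperm, body muscle and neurons were all present. In whole animals fewer cells of a type and less RNA per cell cannot be told apart.

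The gst genes are small and clustered. Of the 44, 25 lie on chromosome II, 9 on V, 4 on IV, 3 on X, 2 on I and 1 on III (WBcel235, Ensembl release 115). The longest run of neighbouring gst genes holds 9 of them at II 13608154 to 13630887 and includes gst-20 and gst-24. A second run of 6, with gst-26 to gst-29, lies at II 15163817 to 15174965, and gst-2, gst-3 and gst-4 are neighbours at IV 10139380 to 10143099. Exons of 23 of the 77 members overlap those of another gene, and neighbouring gst genes resemble each other, so reads may be shared within these groups. Whether the authors' counting used strand is not given in the sources used here.

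In U13A the gst genes sat above their controls as a group, but only 2 of them passed the test one by one. Of the 44 genes, 21 had enough counts to be tested (at least 10 counts in about 3 libraries, scaled to depth). gst-4 and gst-24 rose and no gst gene fell, at an adjusted p threshold of 0.05 (edgeR quasi-likelihood test, Benjamini-Hochberg over 12044 genes), where 1.55% of all tested genes passed, 0.731% rising and 0.822% falling. The log2 fold change was above 0 for 20 of the 21 tested genes, or 95.2%, against 48.6% of all tested genes. Its median was 0.42 over the gst genes and -0.01 over all tested genes, and it ranged from -0.12 for gst-36 to 1.11 for gst-4. The 20 include gst-9, gst-14 and gst-30, which passed the count filter mainly through the mutant libraries. At an unadjusted p under 0.05, 10 gst genes were higher and 0 lower, namely gst-1, gst-4, gst-5, gst-10, gst-13, gst-20, gst-22, gst-24, gst-26 and gst-30, against 6.08% of all tested genes higher and 6.49% lower.

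**Figure D1:**
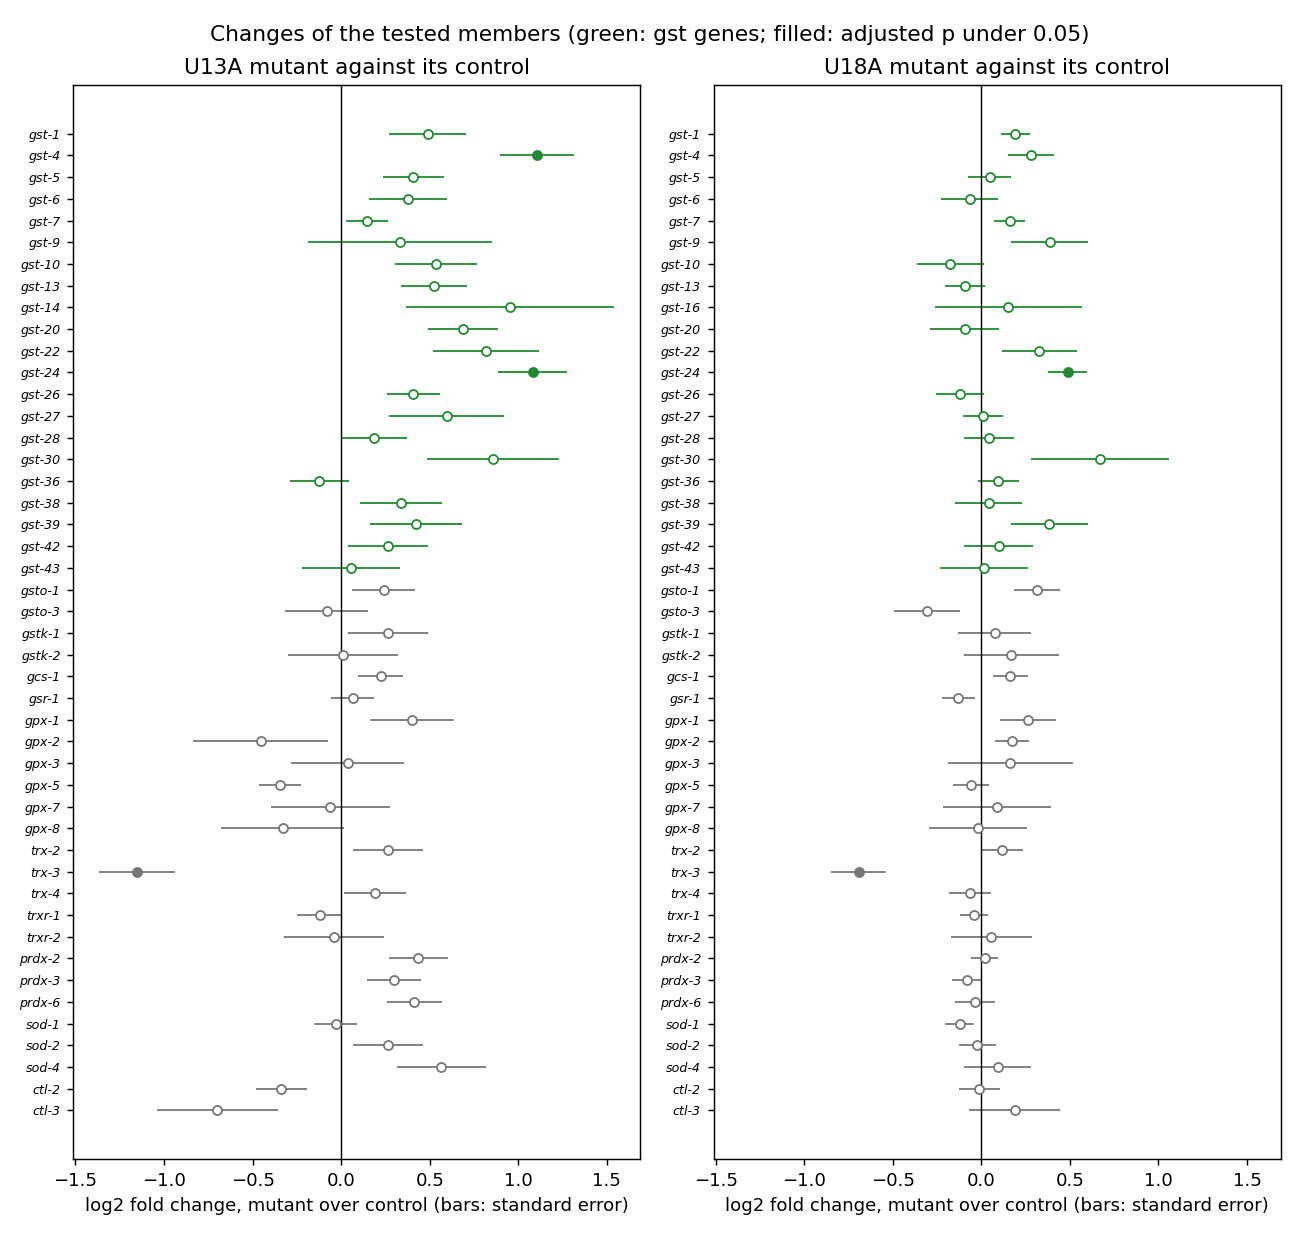
Log2 fold change of each tested member in the U13A and U18A contrasts, mutant over control, with its standard error (3 libraries a group); filled points have an adjusted p under 0.05. In U13A 20 of 21 gst points lie right of 0 and gst-4 and gst-24 are filled, while in U18A 16 of 21 lie right of 0 and only gst-24 among them is filled.

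gst-4, the transferase commonly used as a readout of SKN-1 activity, lies at IV 10142225 to 10143099 on the plus strand. Its level was 3.26, 5.14 and 2.64 CPM in U13A controls A to C against 9.23, 8.31 and 7.22 CPM in the mutants. Every mutant library lay above every control library, and the means were 3.68 ± 1.30 and 8.25 ± 1.01 CPM (SD, n = 3). The log2 fold change was 1.11 (SE 0.21, edgeR adjusted p = 0.0183). Its exons overlap those of dhs-12 on the same strand, a short-chain dehydrogenase gene whose own change was 0.25 (SE 0.14, edgeR adjusted p = 0.495).

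gst-24, at II 13610443 to 13611366 on the minus strand, overlaps no other gene. It was measured at 2.69, 2.69 and 1.698 CPM in the U13A controls against 4.99, 5.85 and 4.80 CPM in mutants. The groups did not overlap, with means of 2.36 ± 0.571 and 5.21 ± 0.559 CPM (SD, n = 3). Its log2 fold change was 1.08 (SE 0.19, edgeR adjusted p = 0.0146). Its neighbour gst-20 in the same run had 0.69 on the log2 scale (SE 0.20, edgeR adjusted p = 0.131). gst-14, also in that run, had 13, 3 and 1 counts in the controls and 15, 13 and 6 in the mutants, and its value has an SE of 0.59.

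Both calls depended on single libraries other than the one that stood apart. Without U13A control C the log2 fold changes were 0.96 for gst-4 and 0.95 for gst-24 (edgeR adjusted p = 0.00274 and 0.00278). Neither gene passed without control A (edgeR adjusted p = 0.114 and 0.0588), without mutant A (0.16 and 0.0899) or without mutant B (0.122 and 0.114). The fold changes stayed between 0.95 and 1.46 over all 6 omissions. Calls over all tested genes were 187 with every library. They were 61 without control A, 37 without mutant A, 38 without mutant B and 352 without control C.

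**Figure D2:**
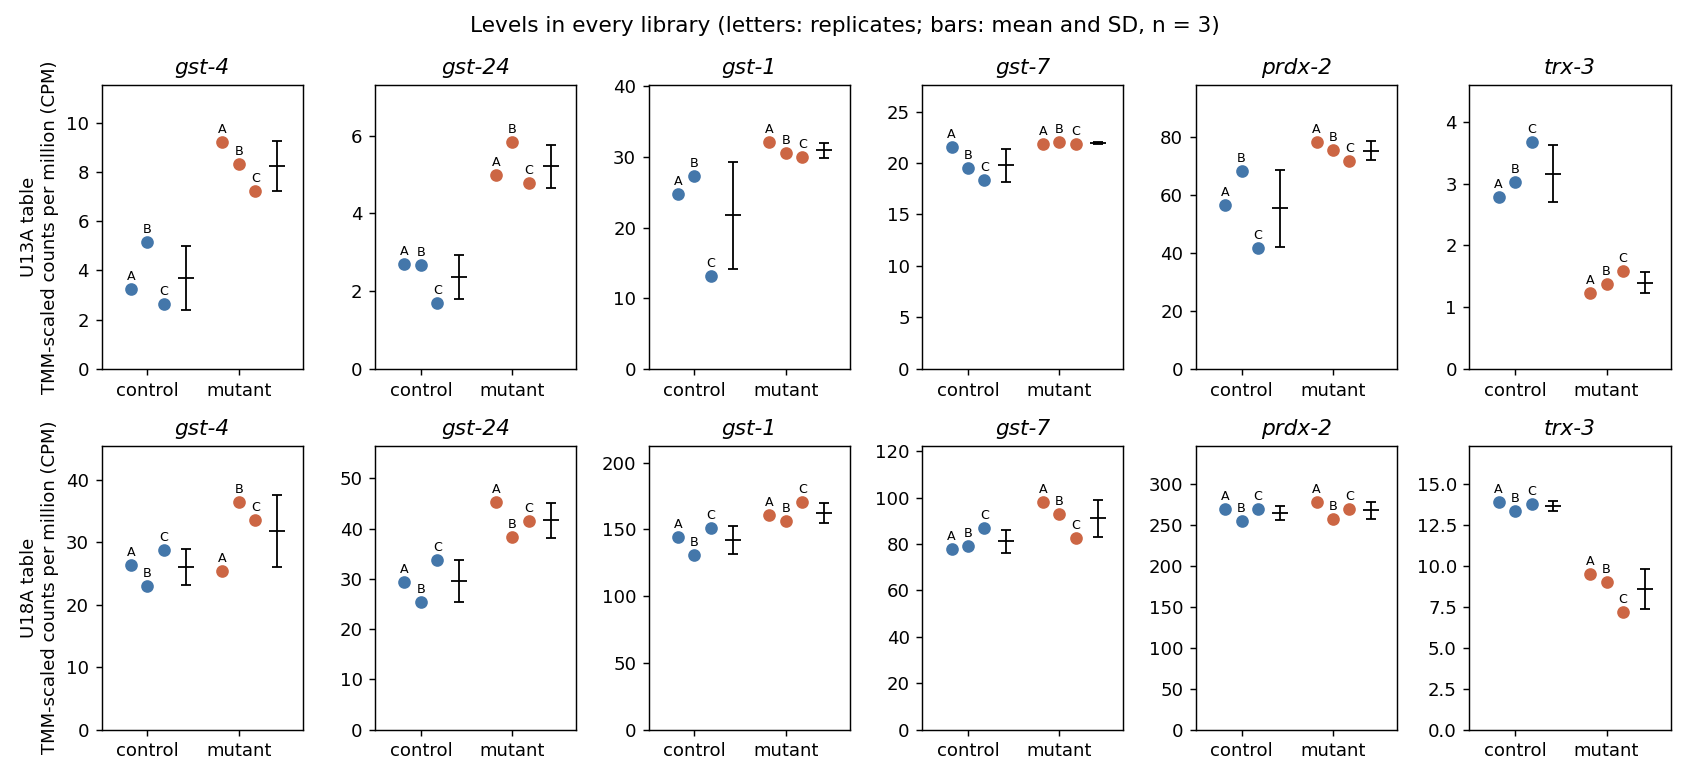
Level in every library (CPM, letters are replicates, bars show mean and SD of 3) for gst-4, gst-24, gst-1, gst-7, prdx-2 and trx-3, with the U13A table above and the U18A table below. In the U13A table all 6 genes have mutants entirely on one side of the controls, with control C far below A and B for gst-1 and prdx-2. Among all tested genes 9.8% had all mutants above all controls and 9.26% below. For gst-7 the gap was small, with control A at 21.5 CPM and mutant A at 21.9 CPM.

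The most abundant transferases moved less. Per kilobase of exon, gst-1 (35.1 CPM), gst-7 (28.0 CPM) and gst-36 (10.2 CPM) had the highest mean levels among gst genes in the U13A table, and gst-4 was at 8.16 CPM. gst-1, a pi-class enzyme on chromosome III, was measured at 24.7, 27.4 and 13.1 CPM in the U13A controls against 32.2, 30.6 and 30.0 CPM in mutants. The mutants were close together and above all controls, and control C was far below controls A and B. Its change, 0.49 on the log2 scale (SE 0.22, edgeR adjusted p = 0.393), was 0.24 without control C.

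gst-7 had 21.5, 19.5 and 18.3 CPM in the U13A controls against 21.9, 22.1 and 21.9 CPM in mutants, which gave 0.15 on the log2 scale (SE 0.12, edgeR adjusted p = 0.664). gst-36 had 6.70, 7.37 and 10.4 CPM in the controls and 7.95, 7.17 and 6.80 CPM in the mutants, and its groups overlapped. With -0.12 (SE 0.17, edgeR adjusted p = 0.816) it was the only tested gst gene below 0, and its value was 0.05 without control C.

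In the run of gst-24, gst-20 had 0.69 beside its 1.08, genes of a second run had 0.19 to 0.60 (gst-26, gst-27, gst-28 and gst-39), and gst-6 and gst-7 had 0.38 and 0.15. The other 23 gst genes were not tested in U13A, the highest count among them being 31 for gst-33. gst-9, gst-14 and gst-30 passed the count filter with 1 control library above it, against 3, 2 and 3 mutant libraries. All of them count among the tested gst genes above 0. gst-30 also counts among those at an unadjusted p under 0.05 and those with all mutants above all controls. With no count filter all 44 genes were fitted, 33 of them above 0 against 45.6% of all genes, and gst-1 passed as well as gst-4 and gst-24.

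Over all gst genes the summed level was 97.3, 108 and 79.3 CPM in the U13A controls against 135, 127 and 123 CPM in mutants. The 3 mutant sums were above the 3 control sums, with control C lowest. Of the 21 tested gst genes 11 had all mutants above all controls, or 52.4%, where 9.8% of all tested genes did, and 0 had all mutants below all controls, where 9.26% of all tested genes did. Against controls A and B alone 12 did, 57.1% against 14.1% of all tested genes. Control C was the lowest library for 12 of the 21 genes, 57.1% against 31% of all tested genes. Without control C, 21 of 22 tested gst genes were above 0, the median was 0.36, the same pair passed the test and 10 were higher at an unadjusted p under 0.05, where 6.38% of all genes were.

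Other properties of the libraries moved the same way. Ribosomal protein genes (rpl and rps) summed to 11740, 11986 and 8231 CPM in the U13A controls against 13040, 13617 and 12936 CPM in mutants, again with control C lowest and the mutants above all controls. The major sperm protein (msp) genes summed to 674, 653 and 417 CPM in the controls and 713, 832 and 778 CPM in the mutants. Short genes were slightly higher in U13A: over 10106 protein-coding genes, the Spearman correlation of log2 fold change with exonic length was -0.12 (a description across genes of the same 6 libraries), and the median change was 0.06 under 1000 bases and -0.03 over it. The tested gst genes have a median exonic length of 739 bases, close to the 797 bases of the other tested members. Of the 21 gst genes 19 lay above the median of short genes. The part of these differences in the gst result was not tested.

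**Figure D3:**
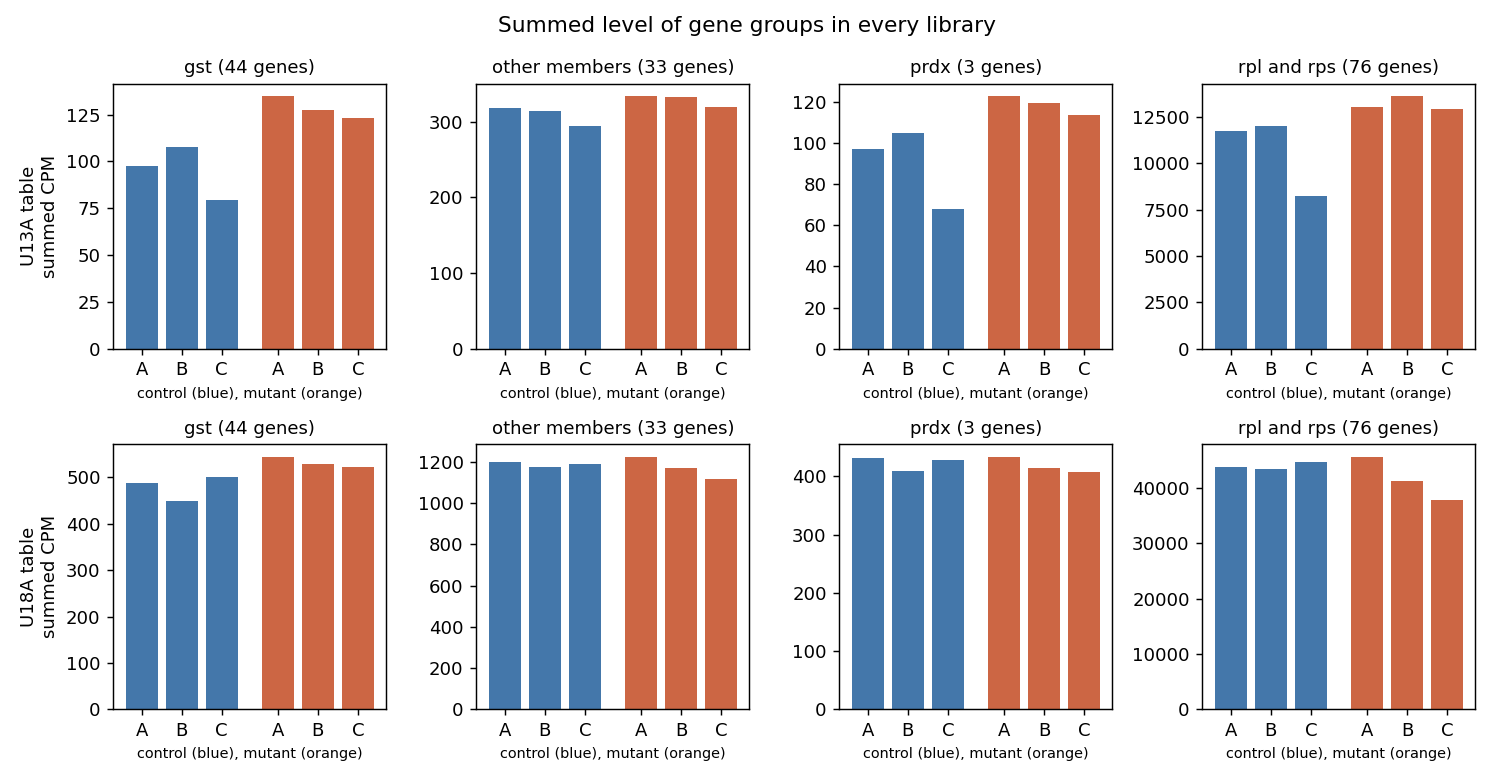
Summed level per library (CPM) of the gst genes, the other members, the peroxiredoxins, and the rpl and rps genes, for the control and mutant libraries. In the U13A table gst mutants lie at 123 to 135 CPM and controls at 79.3 to 108 CPM, and control C is the lowest library in each of these sums.

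The other redox genes had a median change near that of all tested genes in U13A, with members on both sides. Of the 33, 25 were tested in U13A, 0 rose and 1, trx-3, fell, where 0.731% of all tested genes rose and 0.822% fell. The log2 fold change was above 0 for 14 of 25 (56%), against 48.6% of all tested genes. Its median was 0.04 against -0.01 over all tested genes. At an unadjusted p under 0.05, 3 were higher (prdx-2, prdx-6 and sod-4) and 3 lower (ctl-2, gpx-5 and trx-3), 12% of the 25 each way against 6.08% and 6.49% of all tested genes. All mutants were above all controls for 5 of the 25 (20%) and below them for 3 (12%), against 9.8% and 9.26% of all tested genes. The medians differed between families, at 0.41 for prdx, 0.26 for sod, 0.14 for gcs-1 with gsr-1, 0.13 for gsto with gstk, -0.04 for trx with trxr, -0.20 for gpx and -0.52 for ctl. The difference between gst genes and other members was not tested, since the lists were chosen with results known.

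For glutathione synthesis and recycling, gcs-1, the rate-limiting ligase subunit and another SKN-1 target, had 12.1, 11.9 and 13.2 CPM in the U13A controls against 16.08, 13.1 and 14.02 CPM in mutants. The groups overlapped by mutant B, and the log2 fold change was 0.22 (SE 0.13, edgeR adjusted p = 0.528). gsr-1, glutathione reductase, ranged from 29.3 to 33.5 CPM in the controls and from 31.1 to 35.1 CPM in the mutants, a change of 0.06 (SE 0.12, edgeR adjusted p = 0.867). The omega-class gsto and kappa-class gstk genes gave 4 tested members between -0.08 and 0.26, with no call.

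The peroxiredoxins, which reduce peroxides, had the family median nearest that of the gst genes. prdx-2, the most abundant member per kilobase in both tables, had 56.8, 68.2 and 41.6 CPM in the U13A controls against 78.4, 75.7 and 71.8 CPM in mutants. All 3 prdx genes had mutants above controls, as 9.8% of all tested genes did, and control C was lowest for each, as for 31% of all tested genes. The log2 fold changes were 0.44 for prdx-2 (SE 0.17), 0.30 for prdx-3 (SE 0.15) and 0.41 for prdx-6 (SE 0.16), and none passed (edgeR adjusted p = 0.276, 0.458 and 0.271). Without control C their median was 0.27.

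Among thioredoxins, trx-3 moved the other way. The gene, a thioredoxin of the intestine, lies at IV 4487028 to 4489000 on the plus strand. It had 2.78, 3.03 and 3.68 CPM in the U13A controls against 1.24, 1.38 and 1.58 CPM in mutants. Every mutant was below every control, with means of 3.16 ± 0.463 and 1.40 ± 0.173 CPM (SD, n = 3). The log2 fold change was -1.15 (SE 0.21, edgeR adjusted p = 0.0171). It stayed between -1.25 and -1.06 when single libraries were left out, and did not pass without control A, mutant A or mutant B (edgeR adjusted p = 0.0524, 0.139 and 0.111). Without those libraries 61, 37 and 38 of all tested genes passed, against 187 with every library. Its exons overlap, on the opposite strand, those of the GABA B receptor gene gbb-2, whose own change was -0.27 (SE 0.20, edgeR adjusted p = 0.624).

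The mitochondrial thioredoxin trx-2 had a log2 value of 0.27 (SE 0.20, edgeR adjusted p = 0.638), and 0.10 without control C. The thioredoxin reductases trxr-1 and trxr-2 had values of -0.12 and -0.04 (edgeR adjusted p = 0.752 and 0.969). trx-1, known from neurons, had too few counts to be tested in either table, as did sod-3, ctl-1, sod-5, gpx-4, gpx-6, gsto-2 and trx-5, whose highest count in any library was 7.

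Among superoxide dismutases, the cytosolic sod-1 had 30.95, 28.2 and 26.3 CPM in the U13A controls against 28.1, 29.8 and 25.9 CPM in mutants, with overlapping groups and a change of -0.03 (SE 0.12, edgeR adjusted p = 0.947). The mitochondrial sod-2 had 0.26 (SE 0.20, edgeR adjusted p = 0.635), and 0.06 without control C. sod-4, an extracellular form, had 0.56 (SE 0.25, edgeR adjusted p = 0.376). For catalases, ctl-2, the peroxisomal enzyme, had 13.02, 9.78 and 11.9 CPM in the controls and 8.44, 9.63 and 9.33 CPM in the mutants. All mutants lay below the controls, with a change of -0.34 that did not pass (SE 0.14, edgeR adjusted p = 0.337), and ctl-3 had -0.70 (SE 0.34, edgeR adjusted p = 0.429). Of the 6 tested glutathione peroxidases 2 were above 0, against 48.6% of all tested genes. gpx-5 had -0.35 (SE 0.12, edgeR adjusted p = 0.224), and for gpx-2 control C had 30.8 CPM where controls A and B had 11.6 and 12.6 CPM.

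In U18A the gst genes lay mostly near their controls. Of 21 tested gst genes 1, gst-24, rose and 0 fell, where 2.29% of 12689 tested genes rose and 5.88% fell. The log2 fold change was above 0 for 16 (76.2%) against 51% of all tested genes, the median was 0.10 against 0.01, and values ranged from -0.18 for gst-10 to 0.67 for gst-30. At an unadjusted p under 0.05, gst-1, gst-4 and gst-24 were higher and none lower, against 9.37% of all tested genes higher and 12.1% lower. The summed gst level was 487, 450 and 499.8 CPM in the controls and 544, 529 and 521 CPM in the mutants, again without overlap. The median log2 level over the tested gst genes (0.5 CPM added) did overlap. It was 3.57, 3.73 and 3.60 in controls A to C against 3.66, 3.57 and 3.29 in mutants A to C. All mutants were above all controls for 4 of the 21 genes, or 19%, against 12.3% of all tested genes.

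gst-24 had 29.4, 25.5 and 33.7 CPM in the U18A controls against 45.2, 38.3 and 41.4 CPM in mutants. The groups did not overlap, with means of 29.5 ± 4.13 and 41.6 ± 3.46 CPM (SD, n = 3). Its log2 fold change was 0.49 (SE 0.11, edgeR adjusted p = 0.00949). It was 0.48 without the outlying mutant C (edgeR adjusted p = 0.0191), and did not pass without control B (0.39, edgeR adjusted p = 0.076). Calls over all tested genes were 619 without control B, against 1036 with every library.

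gst-4 had 26.4, 22.97 and 28.8 CPM in the U18A controls against 25.4, 36.4 and 33.6 CPM in mutants, with mutant A inside the range of the controls. Its change was 0.28 (SE 0.13, edgeR adjusted p = 0.22), and it passed without mutant A (0.41, edgeR adjusted p = 0.042). gst-1 had 144.4, 131 and 151 CPM in the controls and 160.8, 156.0 and 170.2 CPM in the mutants, a change of 0.19 (SE 0.08, edgeR adjusted p = 0.17). gst-7 and gst-36 had 0.16 and 0.10 (edgeR adjusted p = 0.308 and 0.686).

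Of the other members 25 were tested in U18A, 0 rose and trx-3 fell, where 2.29% of all tested genes rose and 5.88% fell. Of the 25, 13 were above 0 (52%) against 51% of all tested genes, and the median was 0.02 against 0.01. trx-3 had 13.9, 13.3 and 13.8 CPM in the controls and 9.53, 9.02 and 7.18 CPM in the mutants. All mutants were below the tightly grouped controls, with means of 13.7 ± 0.289 and 8.58 ± 1.23 CPM (SD, n = 3). The log2 fold change was -0.69 (SE 0.15, edgeR adjusted p = 0.00759), and it passed in all 6 fits that left out a library, with -0.57 and an edgeR adjusted p of 0.0447 without mutant C. The overlapping gbb-2 had -0.08 (SE 0.13, edgeR adjusted p = 0.789). Thus trx-3 and gst-24 were the members called in both contrasts, and these use different control strains. Of all tested genes 1.55% were called in U13A and 8.16% in U18A, and the share called in both was not counted.

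The peroxiredoxins did not stand above their controls in U18A. prdx-2 had 269.9, 255 and 269 CPM in the controls and 278, 257 and 269 CPM in the mutants, a change of 0.02 (SE 0.08, edgeR adjusted p = 0.922). prdx-3 and prdx-6 had -0.08 and -0.03 (edgeR adjusted p = 0.605 and 0.895). gsto-1 had 0.31 (SE 0.13, edgeR adjusted p = 0.167), gcs-1 0.16 (SE 0.10, edgeR adjusted p = 0.345) and gsr-1 -0.13 (SE 0.09, edgeR adjusted p = 0.459). sod-1, ctl-2 and trxr-1 had -0.12, -0.01 and -0.04 (edgeR adjusted p = 0.416, 0.965 and 0.817).

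Whether the U13A changes exceeded those in U18A was tested in 1 fit of all 12 libraries. Of 27 gst genes and 26 other members tested there, 0 passed with edgeR, where 1.96% of 14155 genes passed, 1.62% with the higher value in U13A and 0.332% with the lower, and 0 passed with DESeq2. At an unadjusted p under 0.05, 6 gst genes (gst-4, gst-10, gst-13, gst-20, gst-24 and gst-26) and the 3 peroxiredoxins were higher in U13A and none of either list lower, against 7.65% and 4.54% of all genes. The median difference was 0.39 over the gst genes and 0.02 over the others, on the log2 scale. For gst-4 the U13A change exceeded the U18A change by 0.84 (SE 0.26, edgeR adjusted p = 0.119), for gst-13 by 0.64 (SE 0.21, edgeR adjusted p = 0.158) and for gst-24 by 0.61 (SE 0.22, edgeR adjusted p = 0.217). For trx-3 the difference was -0.44 (SE 0.26, edgeR adjusted p = 0.541). The gst-4 difference passed without U13A control B (1.19, edgeR adjusted p = 0.00786). Because each table holds a single substitution, differences between the tables and between the substitutions cannot be told apart.

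**Figure D4:**
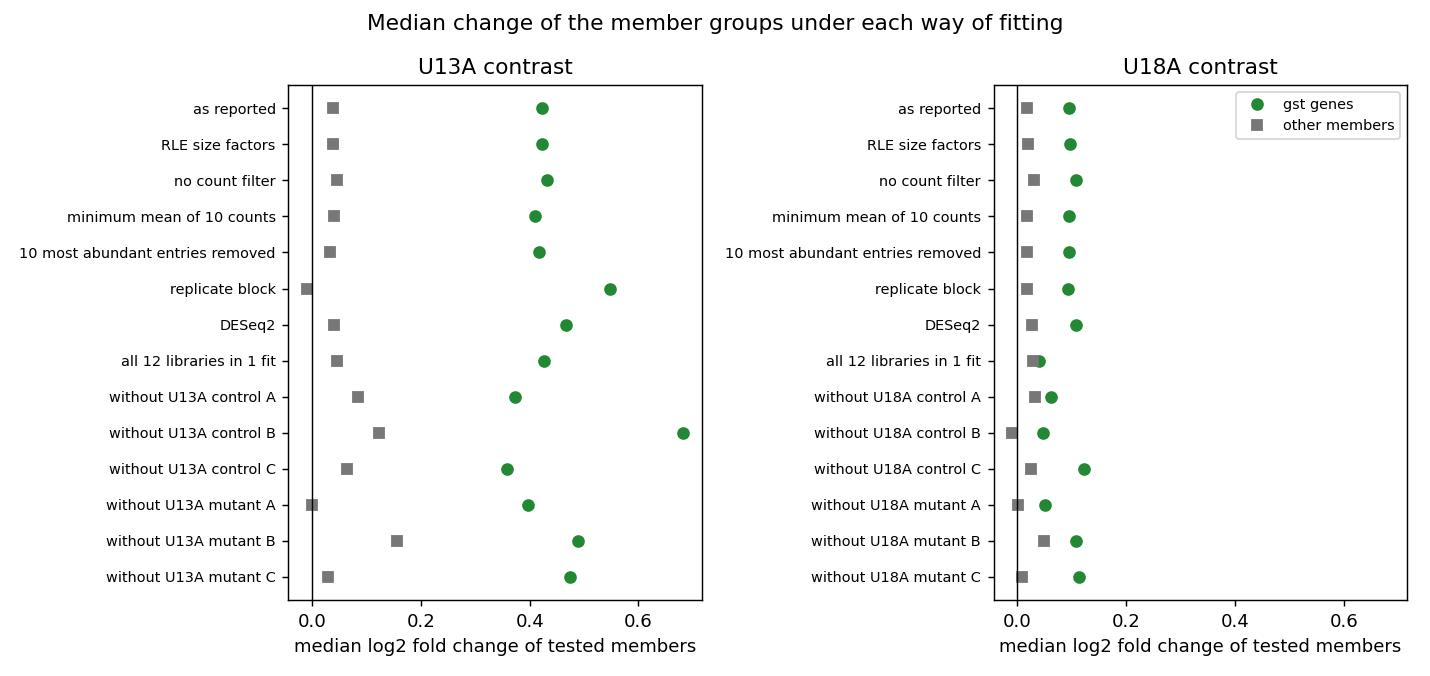
Median log2 fold change of the tested gst genes (circles) and of the other members (squares) for each way of fitting and with each library left out. In U13A the gst median runs from 0.36 to 0.68 and that of the others from -0.01 to 0.16, and in U18A the gst median runs from 0.04 to 0.12.

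The wider pathway was read from lists of regulators and of enzymes that supply glutathione. None of 18 redox regulators passed in U13A with edgeR or DESeq2, where 1.55% of all tested genes passed with edgeR. At an unadjusted p under 0.05 none was higher and 3 were lower, against 6.08% and 6.49% of all tested genes. skn-1, the activator of gst-4, had 33.7, 31.7 and 23.02 CPM in the U13A controls against 36.5, 29.1 and 29.2 CPM in mutants, a change of 0.09 (SE 0.16, edgeR adjusted p = 0.852). wdr-23, which targets SKN-1 for degradation, had 0.14 (SE 0.13, edgeR adjusted p = 0.7). pmk-1, the p38 kinase that activates SKN-1, had -0.74 (edgeR adjusted p = 0.0938) and passed without control C, where 2.81% of all tested genes passed. In U18A none of the 18 passed with edgeR or DESeq2, where 8.16% of all tested genes passed with edgeR. At an unadjusted p under 0.05, 1 was higher and 1 lower, against 9.37% and 12.1% of all tested genes. skn-1 had -0.01 there.

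Genes that supply cysteine, glutathione and NADPH had a U13A median of 0.42, against -0.01 over all tested genes. Of 15 tested, 12 were above 0, 1 was called higher and 1 lower, against 48.6%, 0.731% and 0.822% of all tested genes. cysl-2, a cysteine synthase-like enzyme that handles cyanide and sulfide, rose from 8.59, 9.21 and 5.85 CPM in the controls to 14.1, 18.6 and 17.2 CPM in the mutants (log2 fold change 1.05, SE 0.17, edgeR adjusted p = 0.0076). nnt-1, the mitochondrial transhydrogenase that makes NADPH, fell from 4.67, 2.92 and 3.49 CPM to 1.24, 1.09 and 1.898 CPM (-1.39, SE 0.26, edgeR adjusted p = 0.0171). Control and mutant libraries did not overlap for either gene. Of all tested genes 9.8% had all mutants above all controls and 9.26% had them below. cth-1, a cystathionine gamma-lyase, and idh-1, which makes cytosolic NADPH, had 0.53 and 0.50 and did not pass (edgeR adjusted p = 0.151 and 0.157). Without control C the same pair passed, and the median was 0.35.

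In U18A, 3 of the 15 supply genes rose and 1 fell, with a median of -0.01, where 2.29% of all tested genes rose and 5.88% fell. With DESeq2, 2 rose and 1 fell, and cth-1 did not pass. cth-2, a second cystathionine gamma-lyase, rose by 0.42, idh-1 by 0.30 and cth-1 by 0.29 on the log2 scale, and cbs-2, a cystathionine beta-synthase, fell by 0.55. cbs-2 did not pass without U18A mutant C. cysl-2, which rose in U13A, had -0.51 in U18A and did not pass.

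Of 20 other thiol and peroxide enzymes tested, 0 passed in U13A with edgeR or DESeq2, where 1.55% of all tested genes passed with edgeR. At an unadjusted p under 0.05, 4 were higher and 2 lower, against 6.08% and 6.49% of all tested genes. pdi-2, a protein disulfide isomerase, had 0.40 (SE 0.15, edgeR adjusted p = 0.266), and passed without control C, where 2.81% of all tested genes passed. In U18A 1 rose, the peroxidase gene skpo-1, and 4 fell, where 2.29% of all tested genes rose and 5.88% fell. The 4 were msra-1, a methionine sulfoxide reductase, dnj-27, pdi-2 and the peroxidase gene skpo-2, of which dnj-27 did not pass with DESeq2. pdi-2 fell there by 0.50 on the log2 scale, and without mutant C 0 rose and 3 fell.

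Cell type markers were compared beside these results. In U13A, 0 of 69 tested markers of the 6 tissues passed with edgeR or DESeq2, where 1.55% of all tested genes passed with edgeR. At an unadjusted p under 0.05, 3 were higher and 5 lower, against 6.08% and 6.49% of all tested genes. Without control C 1 marker rose, the epidermal gene grd-10, where 2.81% of all tested genes passed. Of 11 intestinal markers 6 were above 0, against 48.6% of all tested genes, with a median of 0.10. Without control C 5 were above 0, against 50.1% of all tested genes, with a median of -0.01. Their sum was 866 to 1212 CPM in the U13A controls and 1152 to 1211 CPM in the mutants, so the groups overlapped, and none of the 11 was at 0 in all libraries. In U18A, 6 of 12 epidermal markers fell (che-14, rol-6, sqt-3, wrt-2, bus-8 and dpy-7), where 5.88% of all tested genes fell. None of the other epidermal markers passed. Of these grd-10, lin-26 and elt-3 had 0.42, 0.16 and 0.15, and nhr-25, elt-1 and ajm-1 had -0.10, -0.18 and -0.19. The epidermal sum was 610 to 885 CPM in the controls and 366 to 397 CPM in the mutants. Without mutant C the epidermal median was -0.57, against -0.47 with it. Of the epidermal markers 2 then passed (che-14 and bus-8), and 6 were lower at an unadjusted p under 0.05. Of 12 germline markers in U18A, 0 passed with edgeR or DESeq2, where 8.16% of all tested genes passed with edgeR. At an unadjusted p under 0.05, 2 were higher and 0 lower (1 and 0 with DESeq2), against 9.37% and 12.1% of all tested genes with edgeR. Of the 12, 11 were above 0, against 51% of all tested genes, with a median of 0.10, the same as the gst median. Without mutant C, 11 were above 0 and the germline median was 0.14. The part of epidermal and germline RNA in the U18A values was not tested.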

How the data were processed

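The authors deposited unnormalized counts of reads for each gene as 2 tables, each holding a mutant and its control, with strain and letter in the column names. The submitters' processing notes name cutadapt 1.9, Bowtie2 2.3.4.3, featureCounts and Subread 1.6.2. The genome build, annotation, strand setting and treatment of reads with several matches are not given in the sources used here. Positions are from WBcel235 (Ensembl 115), where all 77 members matched by name.

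Counts were tested with edgeR 4.0.16 in R 4.3.3: filterByExpr (minimum count 10, minimum total 15), TMM, robust glmQLFit and a 2-sided glmQLFTest, with Benjamini-Hochberg adjustment over all tested genes. The procedure was also run on simulated counts with known changes. Those counts held no outlying library such as U13A control C, so that run cannot tell how such a library affects the calls. Each SE was computed from the fold change and its F statistic (log2 change over root F, without sign). U13A and U18A were fitted separately (6 libraries each), and their difference in 1 fit of 12.

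The members, gene lists and tests were chosen with earlier results of these data known, so no test was run over a list. Named with values were members past the threshold, the 3 gst genes highest per length in each table, and a fixed set of gcs, gsr, trx, trxr, prdx, sod, ctl and gpx genes; further genes were picked with their values in view. Alternatives tried were RLE scaling, no filter, at least 10 counts on average, leaving out the 10 top entries, a replicate block, DESeq2 1.42.0, all 12 libraries in 1 fit, and each library left out. For the pathway and marker lists, DESeq2 and the fits without U13A control C or U18A mutant C were chosen after seeing the data. No replicate pair agreed within sampling noise. Figures were drawn with matplotlib 3.10.9.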

Additional observations from a re-analysis of the deposited data

How the results depend on the processing

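Of 836 values of named members under the alternatives, 786 kept direction and side of the threshold, 10 no longer passed, 5 newly passed and 35 changed sign. No value that changed sign passed the test in either fit. The U13A gst calls (2) held under RLE scaling, at least 10 counts on average, removal of abundant entries, DESeq2 and the 12-library fit, and were 3 with no count filter. With single libraries left out, the U13A gst calls were 0 to 2 and the gst median 0.36 to 0.68, and the other members' calls were 0 to 1 and their median 0.00073 to 0.16. In U18A the gst calls were 0 to 2, the gst median 0.05 to 0.12 and the other members' median -0.0089 to 0.050. The gst calls for the difference were 0 to 2, the 2 being gst-4 and gst-13 without U13A control B. In 1 fit of 12 libraries, which tested 27 gst genes, the U18A gst median was 0.041.

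With no count filter, 1 gst difference (gst-4) passed, and over all genes 543 were called in U13A, 1347 in U18A and 473 in the difference, against 187, 1036 and 277. DESeq2 called 204, 653 and 290, and the 12-library fit 431 in U13A and 698 in U18A. The causes were not tested.

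Libraries of 1 letter did not deviate together (correlations -0.033 to 0.124), and 2 of 6 U13A and 3 of 6 U18A libraries correlated best with their own letter. With the letter as a replicate block, calls over all genes were 393, 1429 and 310, the U13A gst calls 2 with a median of 0.55, the other members' median -0.0088, and 1 gst difference (gst-4) passed. Low counts limit the 23 untested gst genes.

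The values that changed sign belonged to members near 0, and their causes were not tested. With single libraries left out, the U13A log2 fold change ran from -0.25 to 0.053 for gst-36, from -0.22 to 0.14 for trxr-2 and from -0.083 to 0.033 for sod-1. In U18A it ran from -0.075 to 0.0096 for trxr-1, from -0.11 to 0.20 for trxr-2, from -0.0089 to 0.047 for prdx-2, from -0.097 to 0.032 for prdx-6, from -0.12 to 0.050 for sod-2, from -0.15 to 0.11 for ctl-2 and from -0.0035 to 0.36 for ctl-3. The difference ran from -0.089 to 0.073 for gst-7, from -0.0081 to 0.15 for gcs-1, from -0.14 to 0.015 for trxr-1, from -0.26 to 0.10 for trxr-2 and from -0.065 to 0.30 for gpx-1. For gst-7, where it was 0.0060, it was -0.019 with RLE scaling and with DESeq2, and -0.033 with the most abundant entries removed.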

Other observations

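Other detoxification and stress genes were read from the same fits. Of 30 tested cytochrome P450 (cyp) genes, 0 rose and 1, cyp-37B1, fell in U13A, where 0.731% of all tested genes rose and 0.822% fell. The cyp median was 0.07, but -0.015 with DESeq2, which also called cyp-34A9 lower, and -0.0052 without U13A control C. cyp-37B1 had 79, 31 and 28 counts in the controls and 4, 4 and 3 in the mutants (log2 fold change -3.68, SE 0.54, edgeR adjusted p = 0.00674). In U18A its change was -0.62 and did not pass. Of 45 tested UDP-glucuronosyltransferase (ugt) genes, 0 passed in U13A with edgeR or DESeq2, and the median was 0.19. At an unadjusted p under 0.05, 9 ugt genes were higher and 4 lower, against 6.08% and 6.49% of all tested genes. Without U13A control C, 1 ugt gene rose and 1 fell, and 3 cyp genes fell, where 2.81% of all tested genes passed. In U18A, 5 of 46 ugt genes rose and 4 fell, and 2 of 33 cyp genes rose and 1 fell, where 2.29% of all tested genes rose and 5.88% fell. With DESeq2, 2 ugt genes rose and 2 fell, and 0 cyp genes rose and 1 fell, with 4 cyp genes higher at an unadjusted p under 0.05. Without U18A mutant C, 3 ugt genes rose and 4 fell, and 1 cyp gene rose and 1 fell.

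Of 13 tested stress readout genes, 1 rose in U13A and 0 fell, where 0.731% of all tested genes rose and 0.822% fell. The 1 was dod-24, a gene known from insulin signalling and the response to bacteria. It had 6.61, 9.67 and 5.38 CPM in the controls and 17.1, 15.5 and 14.7 CPM in the mutants (1.09, SE 0.18, edgeR adjusted p = 0.01). The list median was 0.45, with 11 of 13 above 0 against 48.6% of all tested genes. Without control C the antimicrobial peptide gene nlp-29 also rose, where 2.81% of all tested genes passed. In U18A the small heat shock genes hsp-16.2 and hsp-16.41 rose and the antimicrobial peptide gene cnc-2 fell, while dod-24 had -0.10. Of all tested genes 2.29% rose and 5.88% fell there. Neither hsp-16 gene passed without U18A mutant C, while hsp-70 rose and cnc-2 fell in that fit.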
